A study of Mus musculus with 24 samples.

Results

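The complement genes followed here are 9 genes picked by name, *Cfb*, *C3*, *C4b*, *C7*, *C1ra*, *Serping1*, *Masp1*, *Cfp* and *C3ar1*, and all 9 were found among the 23420 genes measured by RNA sequencing in whole left lung lobes of newborn mice. The 9 were chosen with earlier results of these data known. There were 24 lungs in 8 groups of 3. The mutants, titled Sox9Cre; Vangl2f/f and Sox9Cre; Ror2f/f, carried Cre from the *Sox9* locus and floxed alleles of *Vangl2*, a membrane protein of the planar cell polarity pathway, or of *Ror2*, a Wnt receptor, at postnatal day 2 (P2) or day 5 (P5). Each mutant and age had its own control lungs, titled Control(Vangl1/2) or Control(Ror2) with the genotype WT, and no treatment is given for any group. The study asked what loss of planar cell polarity signaling in the lung epithelium does to gene expression while alveoli form.

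*Sox9* Cre acts in the distal lung epithelium and also in other tissues, and the lobes were sequenced whole, so a value mixes epithelium, mesenchyme, vessels, blood cells and immune cells. In such samples fewer cells of a type and less RNA per cell cannot be told apart. For the *Vangl2* mutants at P5 the genotype field names Ror2f/f, and for the *Ror2* mutants at P2 it names Vangl2f/f, and the groups follow the sample titles. *Vangl2* was lower in all 3 mutants than in all 3 controls of its tables, with a log2 fold change of -0.39 at P2 and -1.003 at P5, neither past the threshold (adjusted p = 0.241 and 0.0604). *Ror2* overlapped between mutants and controls in its own tables, at -0.38 at P2 and -0.16 at P5, and it overlapped at *Vangl2* P5 too, at -0.49 (adjusted p = 0.348).

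Complement is a cascade of plasma proteases that coats particles with fragments of C3, calls in leukocytes and can end in a pore in a membrane. It starts by the classical route (C1q with the proteases C1r and C1s, then C4 and C2), the lectin route (collectins and ficolins with the MASP proteases) or the alternative route (C3 with factor B, factor D and properdin), and the routes meet at C3. The liver makes most circulating components, while lung epithelium, fibroblasts and macrophages make some of them locally, and inhibitors in plasma and on cells hold the cascade in check.

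Values are normalized counts, which are reads counted on a gene divided by a size factor of the lung within its table of 6 lungs. The 21 lungs whose reads could be recovered held 13823693 to 21546673 reads on genes. Control 1 of the *Ror2* P5 table lacked reads on part of the genome, so its values for *C1ra*, *C3ar1* and *Cfp* were treated as missing and these genes have 2 controls there. The alveolar type II marker list, led by *Sftpc* and *Sftpb*, summed to between 178775 and 489220 normalized counts over all complete lungs. In every table, mutants and controls overlapped in this sum. The hepatocyte list, led by *Alb* and *Apoa1*, stayed at or under 280.1 in all complete lungs but *Vangl2* P5 control 3, where it reached 5853. By *Xist*, the sexes were not balanced within the groups.

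Per kb of exon, *Serping1* held the highest level of the 9 genes in controls, with a median of 2441 normalized counts per kb over 12 lungs (2020 to 2854). *C3* was next at 1279 (577 to 1861) and below *Serping1* in all 11 lungs with complete values. *C7* (median 364), *C1ra* (196) and *Cfp* (154) followed, and their order varied, since *C7* was above *C1ra* in 8 of 11 lungs and *C1ra* above *Cfp* in 8 of 11. *Cfb* (104) stood below *Cfp* in all 11 lungs and above *C4b* (61.7) in 9 of 11. *C3ar1* (27.8) and *Masp1* (5.08) were the lowest and kept that order in all 11 lungs. Control tables were normalized separately, so these levels rank genes within a lung and say nothing on differences between tables.

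Of the 9 genes, *Cfb* passed the test in both *Vangl2* tables, and it rose 5.22-fold in *Vangl2* mutants at P2 and 4.33-fold at P5. In limma over all genes tested, with an adjusted p under 0.05 as the threshold, 1 of the 9 genes was called higher and 0 lower at *Vangl2* P2, where 1.5% of 17448 genes were called higher and 2.09% lower. At *Vangl2* P5 again 1 of 9 was called higher and 0 lower, against 0.534% and 0.0287% of 17410 genes. At *Ror2* P2 no member was called in either direction, and neither was any of the 17541 genes (0% higher and 0% lower), although 2 of the 9 and 3380 genes (19.3%) had an unadjusted p under 0.05. There, edgeR on whole reads also called 0 of the 9 and DESeq2 called 2. At *Ror2* P5 limma called 0 of the 9, against 0.0873% of 17177 genes called higher and 0.0931% called lower, and 2 of the 9 had an unadjusted p under 0.05, against 18.5% of all genes.

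Most of the 9 leaned upward in the *Vangl2* tables and at *Ror2* P5. Because the 9 were chosen with earlier results of these data known, a shift from the median of all genes is no independent support. The median log2 fold change of the 9 was 0.62 at *Vangl2* P2 (all genes 0.001), 0.39 at *Vangl2* P5 (0.003), -0.20 at *Ror2* P2 (-0.006) and 0.41 at *Ror2* P5 (0.004). All mutant lungs lay above all control lungs for 3 of 9 genes at *Vangl2* P2 (14.6% of all genes), 2 at *Vangl2* P5 (13.2%), 1 at *Ror2* P2 (13.4%) and 4 at *Ror2* P5 (15.6%), where 3 of the 4 rest on 2 controls. All mutant lungs lay below all controls for 0 genes at *Vangl2* P2 (14.9%), 1 at *Vangl2* P5 (12.5%), 1 at *Ror2* P2 (12.2%) and 0 at *Ror2* P5 (14.4%).

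**Figure D1:**
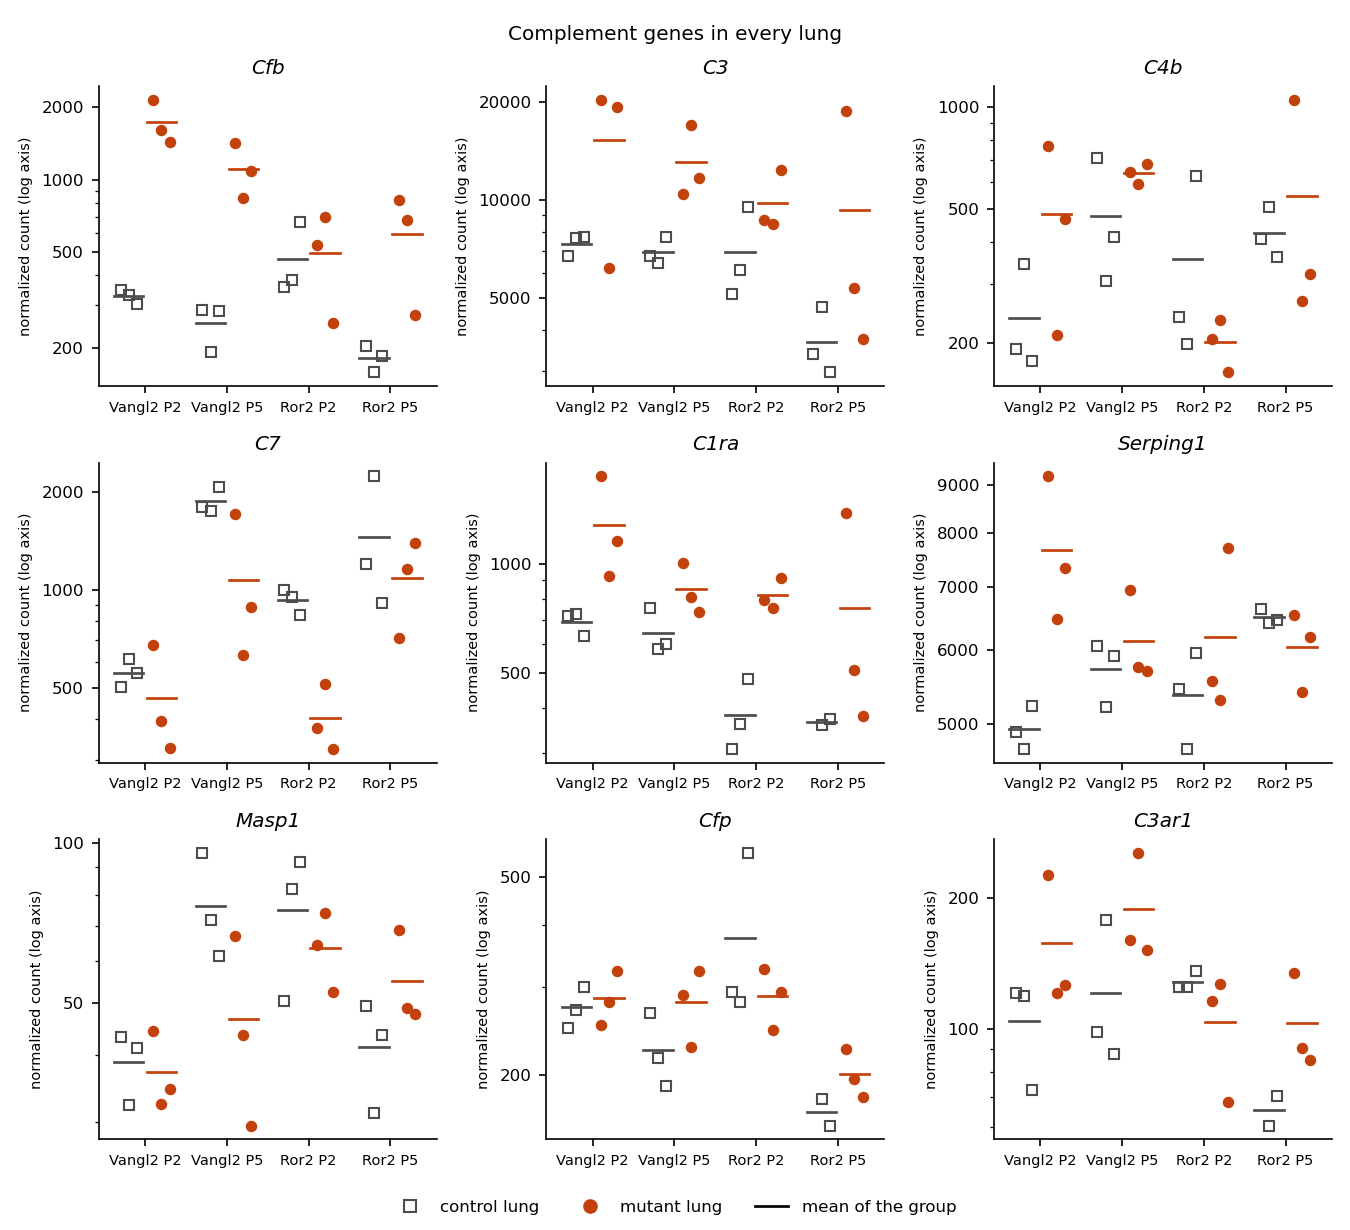
Normalized counts (log axis) of the 9 genes in every lung, by table, with control lungs as open squares, mutant lungs as filled circles and group means as lines. *Cfb* in the *Vangl2* mutants (835 to 2149) lies apart from their controls (192 to 346), while *Cfb* at *Ror2* P2 and most other genes overlap.

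The alternative route was led by *Cfb*, which encodes factor B, the serine protease of the alternative C3 convertase, and lies on chromosome 17 (GRCm38, chr17:34856374-34862518, minus strand). At *Vangl2* P2 the controls had 345.5, 331 and 303.6 normalized counts of *Cfb* and the mutants 2149, 1611 and 1439. Every mutant was thus over 4 times every control, at a log2 fold change of 2.39 (SE 0.16, adjusted p = 0.00379), and *Cfb* had the 2nd smallest p of all 17448 genes. Without control 2 or control 3 the change stayed at 2.40 and 2.33, with adjusted p = 0.0541 and 0.0582, in fits where 1 gene of all tested was called. The gene beside it, *C2*, which encodes the homologous protease of the classical convertase, was at 0.26 (adjusted p = 0.705) with overlapping groups.

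At *Vangl2* P5 *Cfb* had 286.5, 191.6 and 284.2 normalized counts in the controls and 1412, 834.9 and 1084 in the mutants. The groups were again well apart, at 2.11 (SE 0.24, adjusted p = 0.0148), and adjusted p was 0.00283 in a limma fit blocked by replicate number. No label pairs these lungs, and the numbers were taken to pair them because same-numbered lungs deviated together in these data. The call was lost, at log2 fold changes of 1.92 to 2.21, when control 2, control 3, mutant 1 or mutant 3 was left out (adjusted p = 0.0647, 0.0532, 0.0522 and 0.0790) or with sex as a covariate (0.0504). At *Ror2* P2 the controls had 358.9, 381.4 and 663.3 and the mutants 535.3, 699.7 and 253.2. These ranges overlap in full, and the change of 0.02 (SE 0.40, adjusted p = 0.980) turned negative when control 1, control 2, mutant 1 or mutant 2 was left out. At *Ror2* P5 the controls had 202.4, 157.6 and 183.6 and the mutants 822.4, 679.9 and 272. All 3 mutants were higher, by 1.56 (SE 0.37), but adjusted p was 0.122. Without mutant 3, the lowest of the mutants, it was 2.05 with adjusted p = 0.00509.

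*C3*, the component on which all routes converge, was 2nd to *Serping1* in level per kb. At *Vangl2* P5 it had 6729, 6430 and 7735 normalized counts in the controls and 10491, 17071 and 11742 in the mutants. All mutants were above all controls, by a log2 fold change of 0.88 (SE 0.21, adjusted p = 0.103), and the call was made with the replicate block (adjusted p = 0.0343). At *Vangl2* P2 the controls had 6734, 7658 and 7718, mutants 1 and 3 had 20364 and 19362, and mutant 2 had 6221. The groups overlapped because mutant 2 lay below every control (0.87, SE 0.41, adjusted p = 0.255), and the change was 1.43 without it (adjusted p = 0.0198) but 0.58 without mutant 1 (adjusted p = 0.499). The 3 *Ror2* P2 mutants had 8432 to 12421 against 5172 to 9569 in controls (0.53, adjusted p = 0.288, and 0.34 without control 1). At *Ror2* P5 mutant 1 had 18849 and the other mutants 5392 and 3746, against 2966 to 4711 in controls. The log2 fold change of 1.00 there (adjusted p = 0.343) was 0.31 without mutant 1.

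*Cfp* encodes properdin, which stabilizes the alternative convertase and is made largely by myeloid cells. It did not pass the test in any table, with log2 fold changes of 0.06 at *Vangl2* P2, 0.32 at *Vangl2* P5, -0.32 at *Ror2* P2 and 0.25 at *Ror2* P5 (adjusted p = 0.853, 0.465, 0.526 and 0.442). In *Ror2* P2 control 3 it stood at 558.9 normalized counts against 246.5 to 325.7 in the other 5 lungs, and without that lung the change there was 0.000. The fourth gene of the route, *Cfd* (factor D), was at 38.3 normalized counts or less in every lung.

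**Figure D2:**
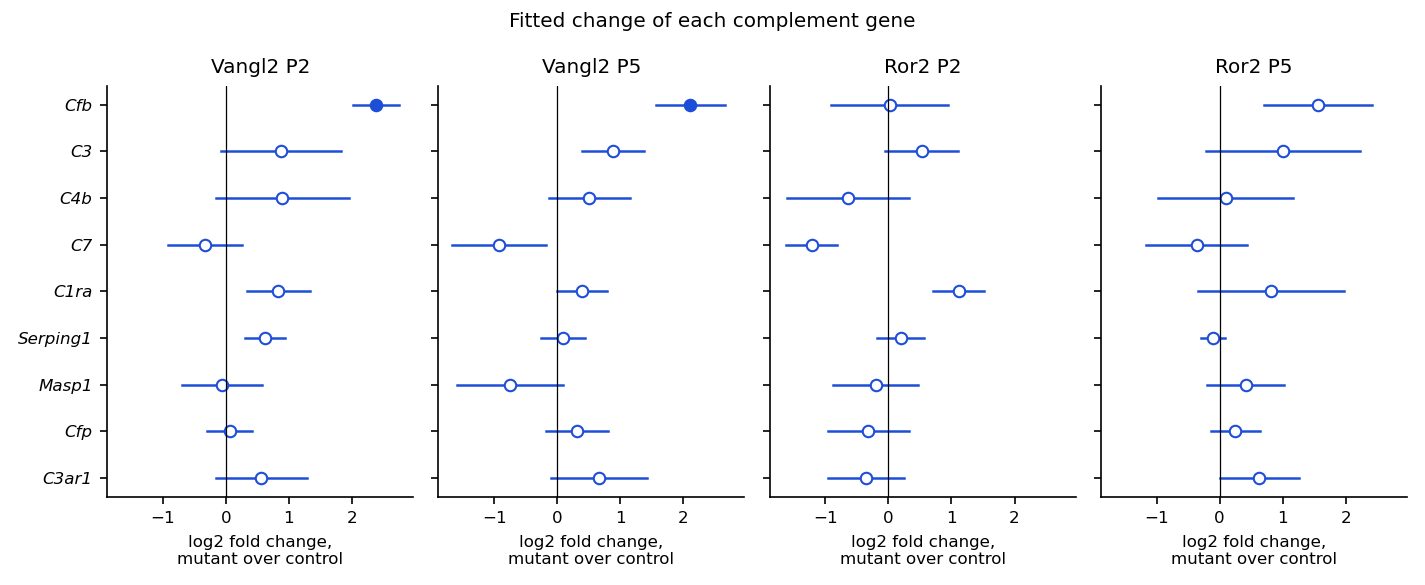
Log2 fold change of each gene, mutant over control, with its 95% interval from limma (horizontal lines), one panel per table, filled where adjusted p is under 0.05. The filled points are *Cfb* at 2.39 and 2.11 in the *Vangl2* tables, and *C7* lies to the left of 0 in all 4 panels.

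The sequences before the starts of *C3* and *C7* are shown. Capitals mark the TATA box letters and short motifs of factors known to act on immune genes. *C3* and *C7* leaned in opposite directions at *Vangl2* P5, neither called in the main fit. RefSeq's promoter table (GRCm38.p6) held 5 of the 9 genes, *C3*, *C7*, *C1ra*, *Cfp* and *C3ar1*, and not *Cfb*, *C4b*, *Serping1* and *Masp1*. Each window below is the 250 bases before the RefSeq start, 5′ to 3′ on the gene's strand, with every motif match in capitals.
*C3*, chr17:57228137-57228386, minus strand: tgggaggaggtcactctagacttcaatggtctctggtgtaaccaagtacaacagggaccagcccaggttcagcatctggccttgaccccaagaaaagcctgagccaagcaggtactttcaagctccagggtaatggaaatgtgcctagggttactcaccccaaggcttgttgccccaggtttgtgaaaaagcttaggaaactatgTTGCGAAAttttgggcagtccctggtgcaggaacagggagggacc
*C7*, chr15:5063774-5064023, minus strand: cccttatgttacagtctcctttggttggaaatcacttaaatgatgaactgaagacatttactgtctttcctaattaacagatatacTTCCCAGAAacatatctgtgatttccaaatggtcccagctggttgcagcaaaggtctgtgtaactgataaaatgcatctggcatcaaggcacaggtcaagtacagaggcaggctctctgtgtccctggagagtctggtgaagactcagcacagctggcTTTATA

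In the *C3* window the capitals mark the C/EBP-type letters TTGCNNAA, at 45 to 38 bases before the start. In the *C7* window they mark the STAT-type letters TTCNNNGAA at 164 to 156 bases and the TATA box letters TATAAA, on the other strand, in the last 6 bases before the start. For *C7*, alone of the 5 windows, a stretch just after the start was not found in the gene's GENCODE transcripts. Its distances are therefore less certain. The NF-kB-type letters GGGANNTCC and the IRF-type letters GAAANNGAA were searched as well and matched none of the 5 windows. These letters were set after a first search had been seen: a looser NF-kB-type form, with more free positions, had matched in the *C3* window, and a longer IRF-type form had matched none, so the absence of an NF-kB-type match holds for the letters given and not for the looser form. Both strands were searched and no match overlaps another. Of 32536 promoter windows of this length, 9.57% held TTGCNNAA, 7.04% TTCNNNGAA, 12.3% TATAAA, 3.61% GGGANNTCC and 7.15% GAAANNGAA. Of the other genes, *C3ar1* held TATAAA, and *C1ra* and *Cfp* held no match to any of the 5 motifs.

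The classical route was represented by *C1ra*, a protease of the C1 complex, and by *C4b*, which encodes C4. *C1ra* was higher in every mutant than in every control at *Vangl2* P2, where the controls had 718.3, 725.5 and 634 normalized counts and the mutants 1744, 927.4 and 1157. The log2 fold change was 0.83 (SE 0.21) and adjusted p was 0.0749. It was past the threshold in 2 of 15 alternatives, DESeq2 (adjusted p = 0.00404) among them. At *Vangl2* P5 mutants ranged from 737.2 to 1003 and controls from 583 to 754.5, which overlap (0.39, adjusted p = 0.265). At *Ror2* P2 *C1ra* had 308.4, 361.2 and 481.6 in the controls and 794.5, 756.6 and 913.9 in the mutants. The mutants were all higher, by 1.12 (SE 0.17), with the 15th smallest p of all genes and adjusted p = 0.203, and called without mutant 2 (1.17, adjusted p = 0.0398) and by DESeq2 (2.62e-05). At *Ror2* P5 the 2 controls had 358.5 and 373.1 and the mutants 1377, 510.7 and 381.7, for 0.82 (SE 0.49, adjusted p = 0.403), which fell to 0.27 without mutant 1.

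*C1ra* lies on chromosome 6 near *C1rb*, an almost identical copy, and reads may be split between them, so single values of either are uncertain. At *Ror2* P2 *C1rb* went the other way, with 198, 182 and 330.7 normalized counts in the controls and 55.2, 81.5 and 46.2 in the mutants. All 3 mutants were lower (log2 fold change -1.93, SE 0.31, adjusted p = 0.203). *C1ra* therefore made up 59.3% to 66.5% of the pair in the controls and 90.3% to 95.2% in the mutants. With the pair summed, the change at *Ror2* P2 was 0.54 (SE 0.18, adjusted p = 0.211), under the 1.12 of *C1ra* alone. In the *Ror2* P5 lungs the share of *C1ra* was 66.2% and 69.1% in the 2 controls and 96.2%, 78.7% and 64.5% in the mutants, and in the *Vangl2* tables it was at least 88.6% in every lung. There the summed pair was past the threshold at P2 (0.88, SE 0.19, adjusted p = 0.0480), a fit added after the values were seen. What sets the split between the copies was not tested.

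**Figure D3:**
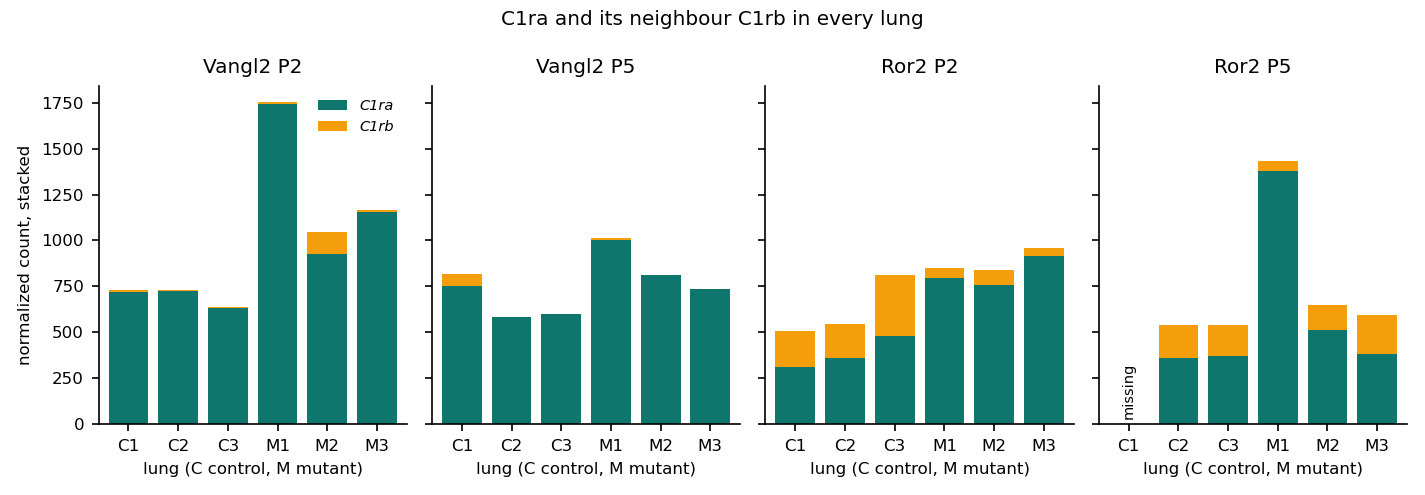
Normalized counts of *C1ra* and, stacked on it, *C1rb* in each lung of the 4 tables. *C1ra* takes 59.3% to 69.1% of the bar in the *Ror2* controls, 90.3% to 95.2% in the *Ror2* P2 mutants and at least 88.6% in the *Vangl2* lungs, while *Ror2* P5 control 1 is missing.

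The partner protease gene *C1s* was higher in all *Ror2* P2 mutants (1153, 934.9 and 1549 against 343.4, 572.6 and 681.9, log2 fold change 1.21, adjusted p = 0.203). It was also higher in all mutants of the *Vangl2* tables, by 0.71 at P2 and 0.74 at P5 (adjusted p = 0.0740 and 0.0725). At *Ror2* P5 it was at 1.27 (adjusted p = 0.361), with 2505 normalized counts in mutant 1 and 379.8 in mutant 3.

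*C4b* did not separate mutants from controls in any table. Its log2 fold changes were 0.90 at *Vangl2* P2, 0.51 at *Vangl2* P5, -0.64 at *Ror2* P2 and 0.09 at *Ror2* P5, none past the threshold (adjusted p = 0.289, 0.371, 0.409 and 0.931), with overlapping groups in all 4 tables. Single lungs stood out, and the change was 0.47 at *Vangl2* P2 without mutant 1, 0.24 at *Vangl2* P5 without control 2 and -0.13 at *Ror2* P2 without control 3. *C4b* was at 766.9 normalized counts in *Vangl2* P2 mutant 1, 626.9 in *Ror2* P2 control 3 and 1053 in *Ror2* P5 mutant 1. Beside its near-identical copy *C4a*, *C4b* made up at least 87.2% of the pair in every lung, and summing the pair moved no call.

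*Serping1* encodes the C1 inhibitor, which blocks C1r, C1s and the MASP proteases. At *Vangl2* P2 it had 4894, 4696 and 5222 normalized counts in the controls and 9193, 6475 and 7328 in the mutants. All mutants were higher, by 0.62 (SE 0.14), and adjusted p was 0.0523, while it was past the threshold in 5 of 15 alternatives. At *Vangl2* P5 the groups overlapped, with 5207 to 6055 in controls and 5690 to 6952 in mutants (0.10, SE 0.15, adjusted p = 0.783). The *Ror2* tables gave 0.19 at P2 and -0.11 at P5 (adjusted p = 0.516 and 0.506), also overlapping.

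*Masp1*, whose main products are a lectin route protease and related splice forms, was the least abundant of the 9, between 29.5 and 95.8 normalized counts. It was at -0.07 at *Vangl2* P2, -0.75 at *Vangl2* P5, -0.20 at *Ror2* P2 and 0.41 at *Ror2* P5 (adjusted p = 0.910, 0.313, 0.717 and 0.434), with overlapping groups in all 4 tables. *C3ar1*, the receptor of the C3a fragment on myeloid cells, was at 0.57 and 0.66 at *Vangl2* P2 and P5, -0.36 at *Ror2* P2 and 0.63 at *Ror2* P5 (adjusted p = 0.329, 0.325, 0.458 and 0.268). It was 0.28 without mutant 1 at *Vangl2* P2, 0.43 without mutant 2 at *Vangl2* P5 and -0.08 without mutant 3 at *Ror2* P2. Its mutants lay above the 2 controls at *Ror2* P5, with 134.3, 90.9 and 84.9 normalized counts against 60.2 and 70.5, and the groups overlapped in the other tables. In the limma fit of *Vangl2* P5 blocked by replicate number, *C3ar1*, *C1ra*, *Cfp* and *Masp1* were not called (adjusted p = 0.0689, 0.0649, 0.312 and 0.117). Without the block, the *Masp1* change at *Vangl2* P5 was -0.47 when mutant 3 was left out.

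*C7* belongs to the terminal route, where its product joins the membrane attack complex, and it was the gene that leaned downward. At *Ror2* P2 the controls had 998.3, 949.4 and 835.6 normalized counts and the mutants 376.4, 513 and 323.5. Every mutant was lower than every control (-1.22, SE 0.17), and *C7* had the 8th smallest p of all genes with adjusted p = 0.203. It was called without mutant 2 (-1.40, adjusted p = 0.0375) and by DESeq2 (2.36e-06), and not by edgeR. At *Vangl2* P5 the controls had 1792, 1747 and 2066 and the mutants 1712, 630.1 and 882. All mutants were lower again, mutant 1 only just (-0.92, SE 0.32, adjusted p = 0.190), and the change was -1.32 without mutant 1 (adjusted p = 0.0561) but -0.60 without mutant 2. The groups overlapped at *Vangl2* P2 (-0.32, adjusted p = 0.484) and at *Ror2* P5 (-0.36, adjusted p = 0.592), where control 2 alone stood at 2233. Its neighbour in the cascade, *C6*, was at 0.21, 0.38, -0.03 and 0.03 in the *Vangl2* P2, *Vangl2* P5, *Ror2* P2 and *Ror2* P5 tables, none called.

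The rest of the complement system was followed in 46 further genes of a list, ordered by role. This list too was drawn up with earlier results of these data known. At *Vangl2* P2 3 of the 40 tested were called higher and 0 lower, with a median log2 fold change of 0.26, against 1.5% of all genes called higher, 2.09% lower and a median of 0.001. They were the membrane inhibitor gene *Cd55* (0.60, adjusted p = 0.0289), *Itgam*, a chain of complement receptor CR3 on myeloid cells (0.69, adjusted p = 0.0458), and *C1qa*, a chain of C1q made mainly by macrophages (0.59, adjusted p = 0.0498). Their mutants lay above their controls without overlap, at 1876 to 2125 against 1298 to 1320 normalized counts for *Cd55*, 587.1 to 818.6 against 397.1 to 448.6 for *Itgam*, and 584.2 to 740.5 against 412.8 to 466.6 for *C1qa*. The other C1q chains were just past 0.05, *C1qb* at 0.74 (adjusted p = 0.0509) and *C1qc* at 0.67 (adjusted p = 0.0739).

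At *Vangl2* P5 0 of 41 further genes were called by limma, 17 had an unadjusted p under 0.05 (18.8% of all genes did), and the median was 0.41. The smallest p were those of *Itgax*, a chain of receptor CR4 (1.26, adjusted p = 0.0652), *C1s* (0.74, adjusted p = 0.0725) and *Hc*, which encodes C5 (0.74, adjusted p = 0.0738). *Hc* had 6327, 6804 and 5665 normalized counts in the controls and 10010, 10921 and 10443 in the mutants. At *Ror2* P2 0 of 40 were called by limma, 5 had an unadjusted p under 0.05, a smaller share than the 19.3% of all genes, and the median was -0.08. There *C1rb*, *C1s* and the membrane inhibitor gene *Cd46* (1.03, adjusted p = 0.203) had the smallest p. At *Ror2* P5 0 of 40 were called by limma, 3 had an unadjusted p under 0.05, again a smaller share than the 18.5% of all genes, and the median was 0.12, with the smallest p for *Cd55* (0.51, adjusted p = 0.236), *C1rl*, a C1r-like protease gene (1.25, adjusted p = 0.254), and *Clu*, the soluble inhibitor clusterin (0.50, adjusted p = 0.260).

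**Figure D4:**
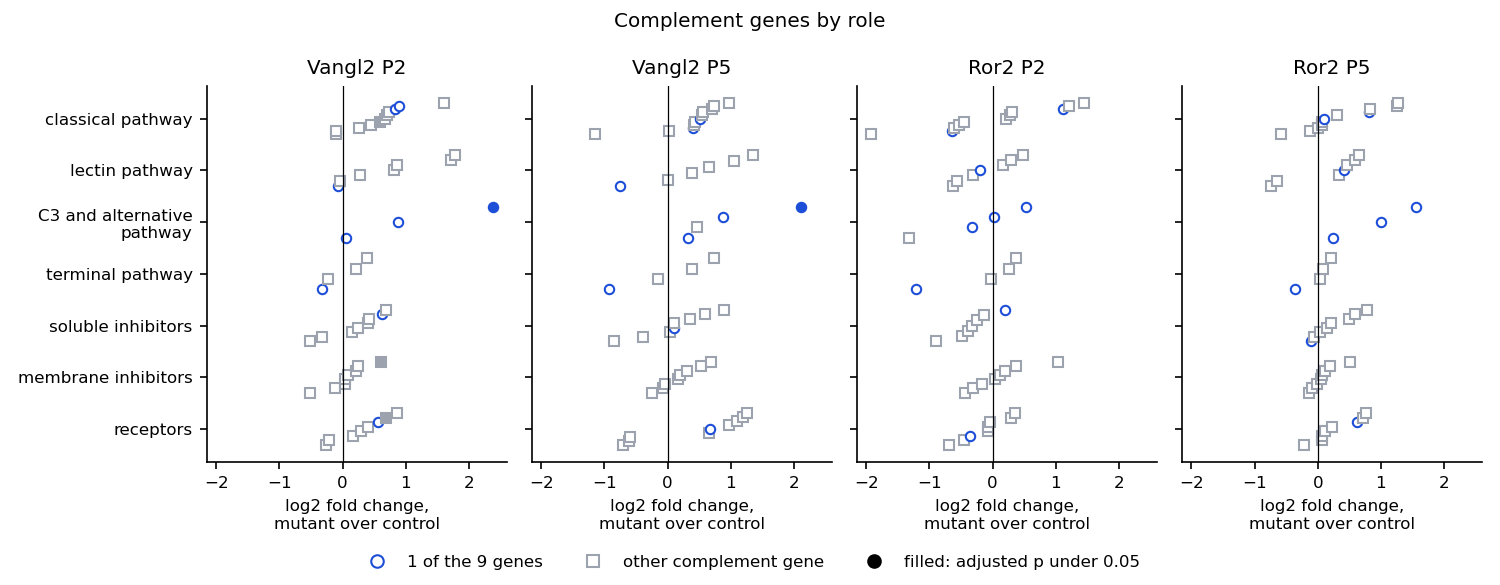
Log2 fold change, mutant over control, of every tested complement gene by role, circles for the 9 genes and squares for the others, filled where adjusted p is under 0.05. Filled symbols are *Cfb* in both *Vangl2* panels and *Cd55*, *Itgam* and *C1qa* at *Vangl2* P2, and the terminal route has members on both sides of 0.

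The tested difference between comparisons passed the threshold for 0 of the 9 genes in all 4 limma tests, with 1, 2, 3 and 1 genes at an unadjusted p under 0.05 in the order given next. Of all genes, 0% passed for *Vangl2* P5 minus P2, 0% for *Ror2* P5 minus P2, 0% for *Vangl2* P2 minus *Ror2* P2 and 0.0118% for *Vangl2* P5 minus *Ror2* P5, and 8.45%, 9.49%, 4.6% and 4.73% had an unadjusted p under 0.05. In limma the *Cfb* change was higher by 2.36 in *Vangl2* P2 than in *Ror2* P2 (95% interval 1.34 to 3.39, unadjusted p = 0.000325, adjusted p = 0.946). Between the ages, the *Cfb* change differed by -0.27 in *Vangl2* mutants (-0.94 to 0.40) and by 1.54 in *Ror2* mutants (0.20 to 2.88, adjusted p = 0.484). At P5 the *Vangl2* and *Ror2* changes of *Cfb* differed by 0.55 (-0.52 to 1.62). For *C7* the difference of the P2 changes was 0.90 (0.16 to 1.64, adjusted p = 0.946) and for *C3* it was 0.35 (-0.85 to 1.54). The *Serping1* change was lower at P5 than at P2 in *Vangl2* mutants by 0.53 on the log2 scale (interval of the difference -0.97 to -0.09, adjusted p = 0.577). At P5 the *Masp1* change differed by -1.16 between *Vangl2* and *Ror2* mutants (-2.16 to -0.17, adjusted p = 0.966).

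Single lungs led many of the 9 genes at once. This was counted for the 9 only and not over all genes, so it is not shown to be particular to them. In *Vangl2* P2, mutant 1 was the highest of the 6 lungs for 8 of the 9 genes. In *Ror2* P5, mutant 1 was the highest of the mutants for 8 of 9, and without it the *C3* change fell from 1.00 to 0.31 and that of *C4b* from 0.09 to -0.52. In *Ror2* P2, control 3 was the highest of the controls for 8 of 9, all but *C7*. No lung of *Vangl2* P5 held such a place, where control 1 led the controls for 6 genes and mutant 1 the mutants for 5.

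Marker lists of other cells also differed between mutants and controls in some tables. Whether they moved with the complement genes from lung to lung was not tested. All 7 measured neutrophil markers, led by *S100a8*, were called higher at *Vangl2* P2 and 4 of 7 at *Vangl2* P5, and their summed level was 8269 to 12887 normalized counts in mutants against 3137 to 4791 in controls at P2 and 9118 to 20339 against 3360 to 4433 at P5. In *Ror2* P2 control 3 this sum was 24472, against 4757 to 7723 in the other 5 lungs. At *Ror2* P5 it was 1965 to 4196 in mutants and 1627 and 2095 in the 2 controls. None of its 7 markers was at 0 throughout, and *Ly6g*, the first defining marker, is not in the tables.

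The 8 macrophage markers (*Cd68* and *Marco* first) were not called singly, 0 of 8 in every table (7 of 8 at an unadjusted p under 0.05 at *Vangl2* P5), but summed higher in all *Vangl2* mutants, at 38512 to 44832 against 29604 to 35806 at P2 and 37709 to 49730 against 16003 to 26009 at P5. They also summed higher in all *Ror2* P5 mutants, at 22485 to 32600 against 19118 to 21410 in 2 controls, although each of the 8 markers overlapped there and their median log2 fold change was 0.05, and the sums overlapped at *Ror2* P2. *Lyz2* alone made up 79.5% to 91.4% of this sum. The 6 club and airway cell markers summed higher in all *Vangl2* and all *Ror2* P5 mutants. The 8 alveolar type I markers summed higher in all mutants at *Vangl2* P2 (112205 to 143293 against 87190 to 108882). Their sums were higher at *Ror2* P5 too (90442 to 108541 against 86788 and 89438 in 2 controls) and overlapped elsewhere. At *Vangl2* P2 the type II markers *Sftpa1* (1.89, adjusted p = 0.0329) and *Slc34a2* (0.63, adjusted p = 0.0394) were called higher. So was the type I marker *Hopx* (0.75, adjusted p = 0.0436), and no alveolar marker was called elsewhere. The summed level of the 8 matrix fibroblast markers was lower in the mutants of all 4 tables. It was 87456 to 98097 against 122619 to 137448 at *Vangl2* P2 and 67779 to 118106 against 141392 to 172457 at *Vangl2* P5. At *Ror2* P2 it was 69711 to 108453 against 118200 to 133464, and at *Ror2* P5 106664 to 136318 against 149189 and 155357 in 2 controls. The collagen genes *Col1a1*, *Col1a2* and *Col3a1* made up 77.4% to 93.2% of that sum, and the single markers were mixed, with 4 of 8 above 0 at *Vangl2* P2, 3 at *Vangl2* P5 and 2 in each *Ror2* table. The defining marker *Dcn* had log2 fold changes of 0.34 and 0.79 in the *Vangl2* tables, -0.91 at *Ror2* P2 and 0.54 at *Ror2* P5, none called. At *Vangl2* P5 the 6 endothelial markers also summed lower in every mutant (37848 to 61110 against 66976 to 74319), with 6 of 6 below 0 and 0 called, while at *Ror2* P2 their sums overlapped. The 4 tested erythroid markers were below 0 at *Ror2* P2 and *Vangl2* P5, 0 called, with overlapping sums in both. At *Vangl2* P2 the 4 tested were below 0 too, and 1 was called lower. The erythroid sums there were 21095 to 35131 in mutants against 41561 to 119110 in controls. At *Ror2* P5 4 of 5 tested were below 0 and 0 were called, with overlapping sums. The defining marker *Hba-a1* is listed at 0 at *Vangl2* P2 and *Vangl2* P5. The part of these cells in the complement values was not tested. Hepatocyte markers summed to 103.3 to 280.1 in *Vangl2* P2 mutants and 68.3 to 82.4 in controls. In *Vangl2* P5 control 3 they summed to 5853. That lung was the highest of the controls for 2 of the 9 genes, *C3* (7735) and *C7* (2066). It was the lowest of the controls for 3 of the 9, and control 1 was the highest for 6.

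**Figure D5:**
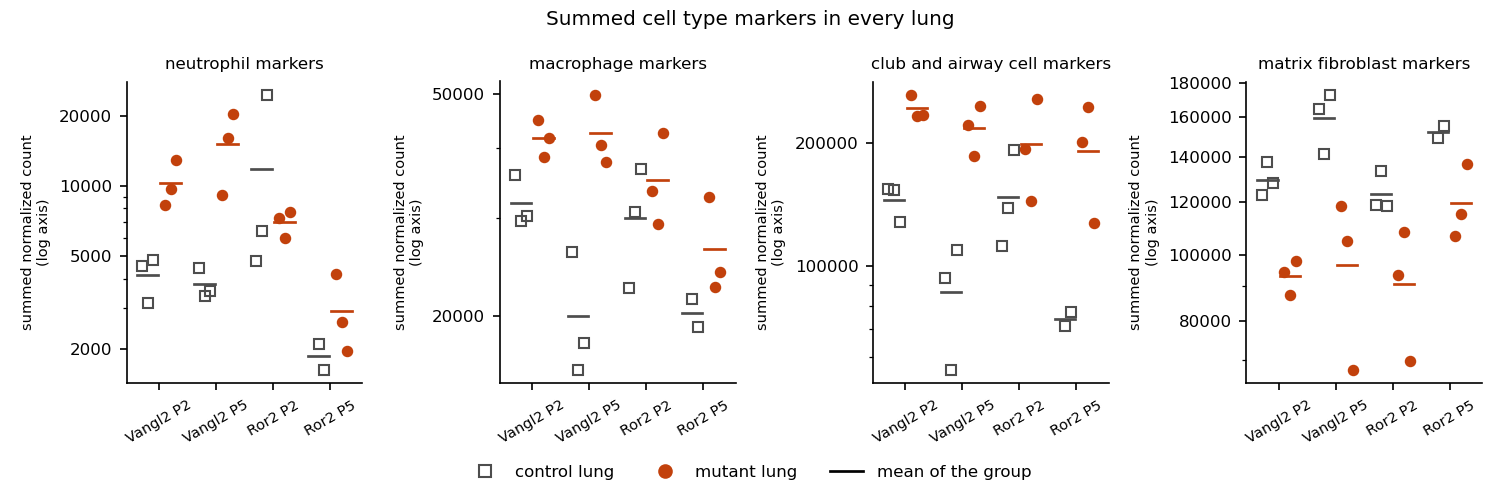
Summed normalized counts (log axis) of 4 marker lists in every lung with complete values, controls as open squares, mutants as filled circles and group means as lines. Neutrophil and macrophage sums are higher in all *Vangl2* mutants, *Ror2* P2 control 3 reaches 24472 for neutrophils, and matrix fibroblast sums, mostly collagen genes, are lower in the mutants of every table.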

How the data were processed

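RNA of 24 whole left lung lobes, in 8 groups of 3, was sequenced by the authors, and the labels name mm10 and DESeq2, while the aligner and gene annotation are not given in the sources used here. The authors deposited 4 tables, 1 for each comparison, in which every gene has a normalized count in each of 6 lungs, a signal equal to reads divided by the size factor of that lung. The deposited log2 fold changes, standard errors, p-values and test statistics (a score) are the authors' own comparisons and were not used. The 9 genes and the lists were chosen with earlier results of these data known.

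limma (version 3.58.1, R version 4.3.3) was fitted with a trend to log2(normalized count + 1) for genes reaching 1 normalized count in 3 or more of the 6 lungs. P-values were adjusted over every tested gene (Benjamini-Hochberg), and 0.05 was the threshold. Differences between comparisons were tested as an interaction over 12 lungs. A fold change on this scale understates the change of low genes. The exact two-sided permutation test for a single gene cannot go below 0.1 with 3 lungs against 3, or 0.2 with 2 against 3. No label says that lungs of a group are separate litters, so p-values measure the spread between lungs only.

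Control 1 of *Ror2* P5 lists 100% of well-expressed genes at 0 on chromosomes 6 to 9 and X and 72.3% on chromosome 5, and 8285 genes on chromosomes 5 to 9 and X or without a known chromosome were set to missing in it. Whole reads were recovered in 21 lungs (100% of values within 0.02 of a whole read), which allowed edgeR (4.0.16) and DESeq2 (1.42.0) for the P2 tables. At *Vangl2* P5 same-numbered control and mutant lungs deviated together (Pearson's r across genes 0.38, 0.34 and 0.24), so the numbers were taken to pair them, and in the other tables at least 1 pair was under 0.1. Gene positions and exon lengths are from GENCODE M21 (GRCm38). The named genes are the 9, the targeted genes and, of the other complement genes in each comparison, those past the threshold or, where none was, the 3 with the smallest p; *C2*, *C6*, *Cfd*, *C1qb*, *C1qc* and the copies *C1rb* and *C4a* were added after their values were seen. Scripts were tested on simulated data.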

Additional observations from a re-analysis of the deposited data

How the results depend on the processing

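The number of the 9 genes called at *Vangl2* P2 was 1 and became 2 with the replicate block, 2 with sex from *Xist* as a covariate, 4 with DESeq2, 2 with the near-identical pairs summed, and 0 to 2 when each lung was left out. At *Vangl2* P5 it was 1 and became 2 with the replicate block, 0 with the sex covariate, and 0 to 1 without each lung. At *Ror2* P2 it was 0 and became 2 with DESeq2 and 0 to 2 without each lung (2 without mutant replicate 2), and at *Ror2* P5 it was 0 and became 0 to 1 without each lung (1 without mutant replicate 3). The replicate block changed no other call than those of *C3* at *Vangl2* P5 and *Serping1* at *Vangl2* P2 (adjusted p = 0.0490), where the numbers were not taken to pair the lungs. The 4 tests of differences called 0 of the 9 under every alternative run. Of the single log2 fold changes, 470 values kept their direction and side of the threshold, and those that turned sign all came from leaving out a lung: *Masp1* at *Vangl2* P2 ranged from -0.197 to 0.024 (above 0 without control 1 or mutant 2), *Cfp* there from -0.035 to 0.143 (below 0 without control 1 or mutant 3), *Cfb* at *Ror2* P2 from -0.287 to 0.444 (below 0 in 4 of 6 such fits), *Cfp* there from -0.496 to 0.000 (without control 3), *C7* at *Ror2* P5 from -0.645 to 0.002 (without control 2) and *C4b* there from -0.521 to 0.465 (below 0 without control 3 or mutant 1). The causes were not tested. The sex covariate was not run at *Ror2* P5, where *Xist* is missing in control 1, and count tests were not run at P5, where reads were not recovered in every lung. Each group has 3 lungs, and at *Ror2* P5 3 genes rest on 2 controls.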
